A study of Mus musculus with 14 samples.

Results

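Neurotransmitter receptor genes were followed at the RNA level in the hippocampus of mice kept in normal air, intermittent hypoxia (IH) or sustained hypoxia (SH). Members were taken by gene symbol alone, as every listed gene whose symbol names a receptor or receptor subunit for noradrenaline, serotonin, dopamine, histamine, acetylcholine, glutamate, GABA, glycine, adenosine, opioids, somatostatin or neuropeptide Y, and 63 of 7756 genes were found. They comprised 6 adrenergic, 8 serotonin, 3 dopamine, 3 histamine, 4 muscarinic, 3 nicotinic, 3 AMPA, 4 kainate, 4 NMDA, 2 delta, 4 metabotropic glutamate, 8 GABAA, 3 glycine, 4 somatostatin, 2 opioid, 1 neuropeptide Y and 1 adenosine receptor gene. Other major subunit genes, among them Gria1, Grin1, Grin2a and Gabbr1, were not analysed here.

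Male wild-type C57BL/6J mice, 8 weeks old, were kept for 28 days. In the IH group (n = 5) oxygen alternated between 10% and 21% in cycles of 2 min for 8 h a day, the SH group (n = 5) breathed 10% oxygen throughout the same 8 h and 21% otherwise, and the control group (n = 4) stayed at 21%. In the study hippocampi were collected after a Y-maze test and a passive avoidance test with an electric shock, and each library was one poly(A)-selected RNA sample of whole hippocampus. The control samples came from a preliminary experiment, and whether those mice went through the behavioural tests is not given in the sources used here. Exposure and experiment therefore cannot be told apart in either comparison with control. No such difference of experiment is stated between IH and SH. The study did use different gas delivery systems for these groups, so exposure pattern and apparatus cannot be told apart in IH against SH. The sources used here do not say whether each library was one animal, so p-values measure the spread between libraries.

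Receptors turn a released transmitter into a response of the receiving cell. Ionotropic receptors (AMPA, kainate, NMDA, GABAA, glycine and nicotinic receptors, and the serotonin receptor encoded by Htr3a) are ion channels assembled from subunits and act fast, glutamate and acetylcholine channels being excitatory and GABA and glycine channels mainly inhibitory. The other members are G protein coupled receptors, which raise cAMP through Gs, lower it through Gi/o or release calcium through Gq, and which tune excitability and plasticity in hippocampal circuits. Noradrenaline acting on beta adrenergic receptors, for example, is known to support the consolidation and retrieval of hippocampus-dependent memory.

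Library totals ran from 7203659 to 11777101 counts. Values are given below as counts scaled to a common library size (normalized counts), fold changes as log2FC ± SE, and a gene was called changed at an adjusted p under 0.05 in edgeR's quasi-likelihood test across 7338 genes. A gene entered the test when each group's mean count reached 40, which held for 61 of the 63 receptor genes and not for Adora2a and Oprm1. In the annotation 40 of the 63 overlap another gene, among them Adrb1, Grin2d, Grik5 and Sstr2 with antisense genes, and whether counting used the strand is not given in the sources used here. The marker check found hippocampal pyramidal cell, dentate gyrus and interneuron genes in all 14 libraries, but the libraries differed in what else they held. Summed choroid plexus markers (14 of 14 listed, led by Ttr) ran from 4057 to 123737 across control, from 5120 to 74915 across IH and from 4711 to 91777 across SH libraries. Summed dentate gyrus granule cell markers (9 of 9) stood at 17145 in IH replicate 5, 15949 in SH replicate 4 and 16734 in SH replicate 5, against 7710 to 11847 in the other 11 libraries. By group the sums were 7710 to 9993 in control, 10346 to 17145 in IH and 9486 to 16734 in SH, so every IH library exceeded every control library; all 9 markers had a log2FC above 0 in IH against control (median 0.41, 2 called). These 3 libraries are called dentate-rich below, and results are also given without them where that changed a call or a sign, an alternative chosen after seeing the data. Erythrocyte genes fell in IH (4 of 4 tested; sums of 1649 to 2304 against 2926 to 3189 in control) and microglial genes in SH (3 of 5 tested; 3537 to 4313 against 4628 to 5159), and the part of the dentate, erythrocyte or microglial genes in the receptor values was not tested.

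Few receptor genes were called. In the IH group 5 of 61 (8.20%) were called against control, where 10.9% of all tested genes were called: Adrb1, Grin2d and Grik5 were lower (3 genes; 4.85% of all genes) and Htr1a and Npy2r higher (2 genes; 6.08%). In the SH group 8 of 61 (13.1%) were called against control, where 20.6% of all genes were called: Grik5, Grin2d, Adra2c and Sstr3 were lower (4 genes; 10.5%) and 4 genes, Htr1a, Sstr2 and Htr2a among them, were higher (10.2%). Between IH and SH 1 receptor gene was called, Adrb1, lower in IH (1.64% of 61, against 2.37% of all genes and 0.899% lower). These shares were near or below the background, so the receptor genes as a whole gave no more calls than the table they came from. At an unadjusted p under 0.05 the counts were 16, 21 and 4 (29.8%, 36% and 15.8% of all genes), and at the limits the study used, a log2FC beyond 0.58 with an unadjusted p under 0.05, they were 2, 1 and 1 (2.68%, 2.71% and 0.981%). The median log2FC over the 61 genes was -0.02 in IH against control, 0.04 in SH against control and -0.03 in IH against SH, beside -0.02, 0.00354 and -0.00386 over all tested genes. The log2FC was below 0 for 31, 28 and 37 of the 61 genes, and for 51.7%, 49.6% and 51.1% of all genes.

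Both comparisons with control used the same 4 control libraries, so their calls are set side by side rather than counted as agreement. The table itself had been filtered by the authors on its difference from control, and all shares hold only within it. The adjustment of p-values also ran over this selected set, so adjusted p-values and calls against control may be too favourable. By how much was not tested. The number of calls moved when 1 library was left out. In IH against control it was 2 with control replicate 1 or 2 left out and 3 with control replicate 4, IH replicate 1 or IH replicate 4 left out. In SH against control it was 4 with control replicate 1 left out, 5 with control replicate 2 and 16 with SH replicate 1. Adrb1 in IH against control and Htr1a in both hypoxia groups kept their calls in all 25 other settings tried.

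**Figure D1:**
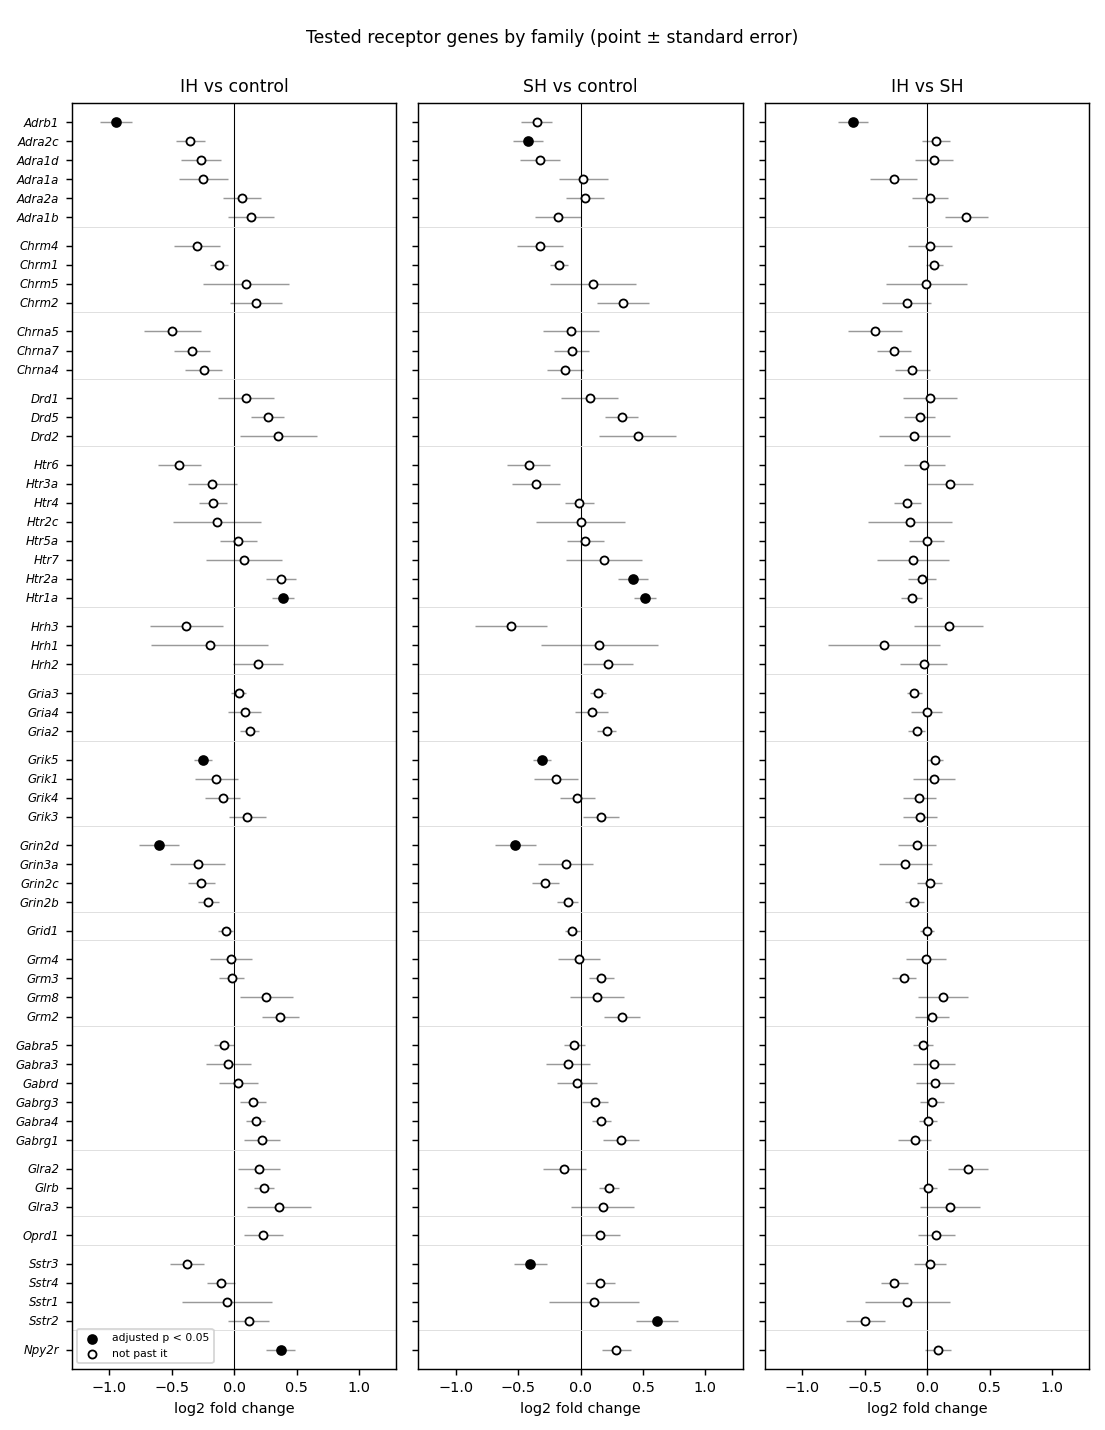
Log2 fold changes (points, ± SE as lines) of tested receptor genes, ordered by family, for IH against control, SH against control and IH against SH; filled points have an adjusted p under 0.05. Adrb1 at -0.95 lies farthest from 0 in IH against control, Sstr2 at 0.61 in SH against control, and Adrb1 is the only filled point in IH against SH.

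The upstream sequences of Adrb1, Htr1a and Sstr2 are shown because these were the called receptor genes that kept a call against control after the trends of fold change on transcript length and GC content were removed. Each is the 250 bases before the annotated start in RefSeq (build GRCm38.p6, all on the plus strand; gene coordinates elsewhere are GRCm39). Capitals mark 3 motifs searched on both strands: ACGTG and GCGTG, the core letters of a hypoxia response element, and TGACG, the core of a cAMP response element (a match on the other strand shows the reverse complement, and neighbouring matches may overlap).
Adrb1, chr19:56721867-56722116: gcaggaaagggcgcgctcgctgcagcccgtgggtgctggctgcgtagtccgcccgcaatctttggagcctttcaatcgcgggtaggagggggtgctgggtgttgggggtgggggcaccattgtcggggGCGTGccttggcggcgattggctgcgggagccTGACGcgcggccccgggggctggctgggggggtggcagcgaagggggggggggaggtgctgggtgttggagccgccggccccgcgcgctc
Htr1a, chr13:105443443-105443692: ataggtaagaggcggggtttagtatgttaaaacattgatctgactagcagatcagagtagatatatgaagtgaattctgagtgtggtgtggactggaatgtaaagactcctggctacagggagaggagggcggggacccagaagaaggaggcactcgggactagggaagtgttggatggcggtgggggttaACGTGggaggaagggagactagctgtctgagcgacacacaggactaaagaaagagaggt
Sstr2, chr11:113619077-113619326: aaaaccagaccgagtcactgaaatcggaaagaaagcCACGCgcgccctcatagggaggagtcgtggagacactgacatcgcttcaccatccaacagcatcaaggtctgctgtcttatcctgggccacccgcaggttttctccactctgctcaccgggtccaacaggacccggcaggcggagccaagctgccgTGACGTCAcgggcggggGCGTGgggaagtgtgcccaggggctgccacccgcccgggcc

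The window of Adrb1 was 74.0% G and C and held GCGTG 122 bases and TGACG 90 bases before the start. That of Htr1a, at 50.4% G and C, held ACGTG 59 bases before it. That of Sstr2, at 63.6%, held GCGTG at 214 and 41 bases and an overlapping TGACG pair at 58 and 55 bases, which together spell the palindrome TGACGTCA. A window was found for 46 of the 63 receptor genes. ACGTG was in 16.6% of the 32851 windows of all genes and in 18.3% of the 60 receptor windows, GCGTG in 28.2% and 33.3%, and TGACG in 17.8% and 11.7%. A match is a description of these letters and not a site of binding.

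**Figure D2:**
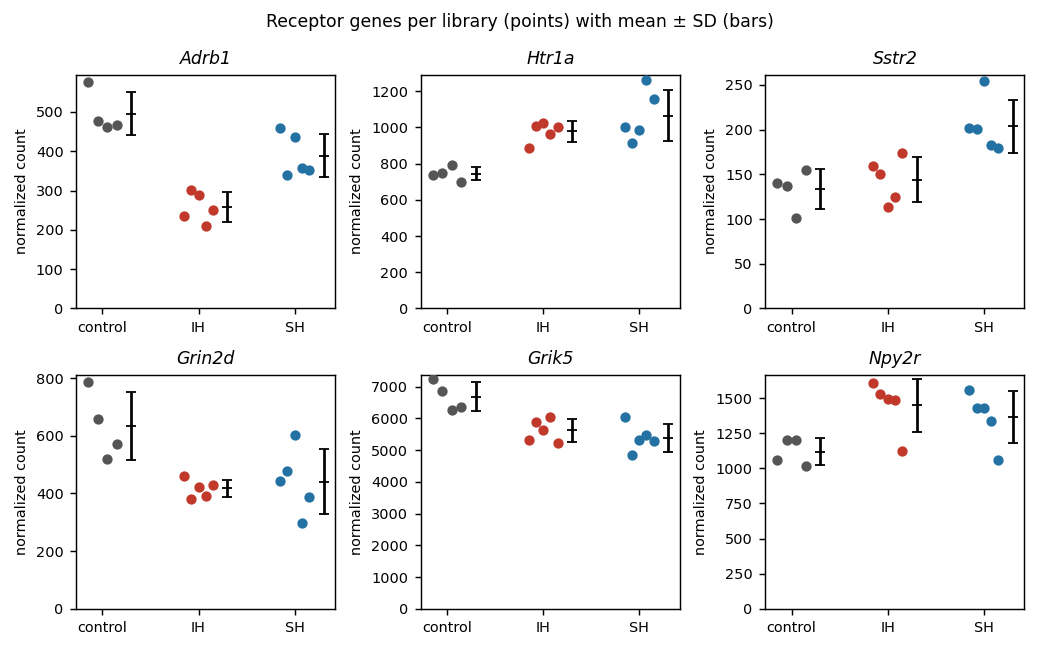
Normalized counts per library (points) with mean ± SD (bars) for 6 receptor genes in the control (n = 4), IH (n = 5) and SH (n = 5) groups, with axes from 0. Adrb1 falls from 496 in control to 257 in IH with SH between them, Htr1a is higher in every hypoxia library than in every control library, and Sstr2 stands apart in SH.

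Among the adrenergic receptors, which bind noradrenaline, Adrb1 was the only gene called by edgeR in IH against control, where it was lower. Adrb1 (chromosome 19, 56710631 to 56721545, plus strand) encodes the beta 1 receptor, which couples to Gs and raises cAMP. Its normalized counts were 577, 476, 462 and 468 in the control libraries, 235, 302, 290, 210 and 250 in the IH libraries and 459, 340, 436, 357 and 353 in the SH libraries. All 5 IH libraries lay below all SH libraries, and all SH libraries below all control libraries. In IH against control 7 receptor genes lay wholly below control and 3 wholly above (7.48% and 7.66% of all genes), and in SH against control 2 below and 3 above (10.6% and 8.76%). IH was lower than SH without overlap for 2 receptor genes, Adrb1 and Sstr2 (1.83% of all genes), and higher for 0 (2.63%).

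The group means of Adrb1 were 496 ± 54.5 in control (SD, n = 4), 257 ± 38.5 in IH (n = 5) and 389 ± 54.3 in SH (n = 5). Adrb1 fell by 0.95 on the log2 scale in IH against control (SE 0.13, adjusted p = 0.000548), and its adjusted p was at most 0.0032 over the 25 other settings. In SH the log2FC was -0.35 ± 0.12, with an adjusted p of 0.0571 that misses the threshold, and it passed with DESeq2 (0.0458), with 80th percentile scaling (0.0447) and without SH replicate 1 (0.0291). The direct test of IH against SH gave -0.60 ± 0.12 (adjusted p = 0.018, 95% interval -0.85 to -0.34). That call was lost when only those groups were fitted (-0.59, adjusted p = 0.0548) and without the dentate-rich libraries (-0.67, adjusted p = 0.066), with a fold change of like size in both. The study also measured Adrb1 by RT-qPCR, relative to Gapdh, and found no significant effect of exposure on it. In whole tissue, fewer cells of a type and less RNA per cell cannot be told apart, for Adrb1 and for each receptor below.

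Of the 5 alpha adrenergic receptor genes, 1 was called, Adra2c in SH against control. Adra2c encodes the alpha 2C receptor, a Gi-coupled receptor that restrains transmitter release. It counted 698, 821, 774 and 733 in control, 654, 523, 646, 653 and 493 in IH and 705, 490, 587, 558 and 486 in SH. The IH values were all under the lowest control value, and in SH only replicate 1 reached the control range. Adra2c fell by 0.42 in SH against control (SE 0.12, adjusted p = 0.0215), and in IH the log2FC was -0.35 ± 0.12 (adjusted p = 0.0655), which passed with DESeq2 (0.042) and without SH replicate 1 (0.0374). Leaving out control replicate 2 (-0.38, adjusted p = 0.0676), SH replicate 2 (-0.37, 0.0516) or the dentate-rich libraries (-0.35, 0.0824) ended the SH call, and with the trends of fold change on transcript length and GC content removed it was -0.09 (0.688). Adra1d, a Gq-coupled alpha 1D receptor and the most abundant adrenergic receptor gene, averaged 1417 ± 79.1 in control, 1178 ± 195 in IH and 1132 ± 305 in SH, with log2FC of -0.27 ± 0.16 (adjusted p = 0.265) and -0.32 ± 0.16 (adjusted p = 0.157); without SH replicate 1 the latter was -0.50 (adjusted p = 0.0113). The other 3 genes, Adra1a, Adra1b and Adra2a, ranged from -0.25 to 0.13 in IH and were not called in any comparison.

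Among the 8 serotonin receptor genes, Htr1a rose in both hypoxia groups and Htr2a in SH. Htr1a (chromosome 13, 105580147 to 105584630) encodes the Gi-coupled 5-HT1A receptor, which opens potassium channels in pyramidal cells and interneurons. Its counts were 739, 749, 791 and 701 in control, 885, 1010, 1026, 964 and 1005 in IH and 1001, 915, 988, 1264 and 1160 in SH. Every hypoxia library lay above every control library, and the IH and SH ranges overlapped. Htr1a rose by 0.39 ± 0.09 in IH (adjusted p = 0.0128) and by 0.52 ± 0.09 in SH (adjusted p = 0.00188), and both calls were kept in the 25 other settings, with log2FC from 0.35 to 0.43 and from 0.38 to 0.57. The difference of IH from SH was -0.12 ± 0.08 (adjusted p = 0.538, 95% interval -0.30 to 0.05).

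Htr2a encodes the Gq-coupled 5-HT2A receptor. It counted 249, 344, 388 and 342 in control, 467, 367, 493, 405 and 419 in IH and 476, 420, 475, 411 and 425 in SH. The SH libraries were all above control, and in IH replicate 2 fell within the control range. Htr2a rose by 0.42 ± 0.12 in SH (adjusted p = 0.0247) and had a log2FC of 0.38 ± 0.12 in IH (adjusted p = 0.0542). Without control replicate 1, its lowest library, the SH value was 0.30 (adjusted p = 0.0747), and the IH value passed in 4 of 25 other settings, among them without control replicate 3 (0.47, adjusted p = 0.0316) and without IH replicate 2 (0.43, 0.0445).

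The most abundant serotonin receptor gene was Htr2c, whose Gq-coupled product is known to be dense in choroid plexus epithelium. It counted 1276, 1011, 803 and 1724 in control, 1654, 987, 914, 1429 and 486 in IH and 1786, 1538, 1375, 558 and 742 in SH. The libraries with 41565 or more summed choroid plexus markers (control replicate 4, IH replicates 1 and 4, SH replicates 1 and 2) held the highest Htr2c counts of their groups, and the 3 dentate-rich libraries held the lowest counts of all 14. The log2FC was -0.14 ± 0.36 in IH and -0.00 ± 0.36 in SH (adjusted p = 0.815 and 0.999), and without the dentate-rich libraries 0.05 and 0.38. The part of choroid plexus and dentate gyrus content in these values was not tested. Of the Gs-coupled serotonin receptors, Htr6 had log2FC of -0.44 ± 0.17 in IH and -0.42 ± 0.17 in SH (adjusted p = 0.105 and 0.0966) with no overlap between IH and control, and Htr4 and Htr7 lay between -0.17 and 0.19 in both. Htr3a, the subunit of the serotonin-gated channel, was at -0.17 ± 0.19 and -0.36 ± 0.19, and Htr5a at 0.03 and 0.04.

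Receptors for dopamine and histamine gave no call with edgeR or DESeq2 in any comparison, and 1 of the 6 genes, Drd5 in SH against control, had an unadjusted p under 0.05. Drd5, a Gs-coupled dopamine receptor and the most abundant of its family here, counted 248, 309, 287 and 295 in control, 321, 319, 371, 339 and 366 in IH and 413, 252, 343, 360 and 419 in SH. All IH libraries were above control, while SH replicate 2 was not. The log2FC was 0.27 ± 0.13 in IH (adjusted p = 0.178) and 0.33 ± 0.13 in SH (adjusted p = 0.0837), and without SH replicate 2 it was 0.43 (adjusted p = 0.0147). Drd1 and Drd2 were low, at mean counts of 48.0 to 89.4 per group, and had standard errors of 0.21 to 0.31. Hrh3, a Gi-coupled presynaptic receptor for histamine, ranged from 1034 to 1925 in control, from 537 to 1447 in IH and from 507 to 1282 in SH. Its 3 lowest counts were those of the dentate-rich libraries, and its log2FC was -0.38 ± 0.29 and -0.56 ± 0.29 (adjusted p = 0.381 and 0.181). Hrh1 stood at 7.41 in IH replicate 4 against 87.1 to 156 in the other IH libraries, which gave it the largest standard error of the 61 genes (0.47).

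**Figure D3:**
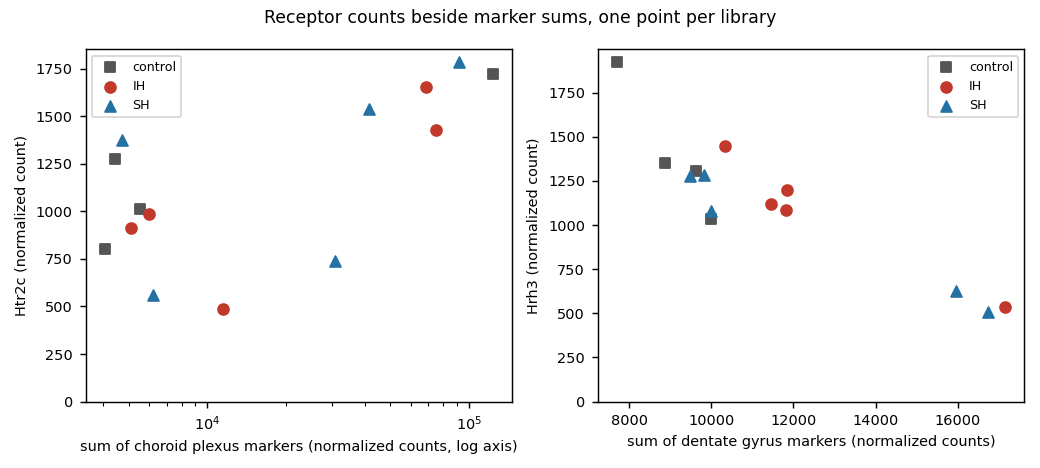
Htr2c normalized counts against the summed choroid plexus markers (left, log axis) and Hrh3 normalized counts against the summed dentate gyrus markers (right), one point per library by group. The 3 dentate-rich libraries, farthest right in the right panel, hold Hrh3 counts of 507 to 628, below the other 11.

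Several receptor genes had their lowest hypoxia values in the dentate-rich libraries. In these 3 libraries 11 of 61 receptor genes (18.0%) lay below all 7 other hypoxia libraries, where 4.77% of all tested genes did, and 3 (4.92%) lay above, where 4.87% of all genes did. Those below were Htr2c, Htr3a, Htr7, Npy2r, Chrm5, Gria4, Sstr1, Sstr3, Grik4, Hrh3 and Gabra3. Those above were Grm2, Grin2c and Gabrd. The median CV of receptor genes was 17.7% between SH libraries, against 12.2% for all genes, and 11.2% between control libraries, against 10.1%. Oligodendrocyte markers were also highest in these libraries, at 139568 to 191342 against 74888 to 121780 in the others.

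The 7 acetylcholine receptor genes gave no call with edgeR or DESeq2 either; 2 in IH against control, 1 in SH against control and 0 in IH against SH had an unadjusted p under 0.05. Chrm1 encodes the Gq-coupled M1 receptor of pyramidal cells, the most abundant muscarinic gene. It counted 5643 to 6054 in control, 5175 to 5802 in IH and 4368 to 5784 in SH, and its log2FC was -0.12 ± 0.07 (adjusted p = 0.278) and -0.18 ± 0.07 (adjusted p = 0.0957; 0.0407 without SH replicate 1). Of the nicotinic channel subunits, all 3 in the filtered table had lower mean counts in IH than in control. Chrna7, which forms calcium-permeable homomeric channels, counted 581, 737, 735 and 633 in control, 652, 520, 440, 583 and 465 in IH and 687, 714, 730, 612 and 453 in SH. The groups overlapped, and the log2FC was -0.34 ± 0.14 in IH (adjusted p = 0.129), -0.07 ± 0.14 in SH (adjusted p = 0.75) and -0.26 ± 0.14 in IH against SH (adjusted p = 0.378). Chrna5, an accessory subunit, lay below control in all IH libraries (61.7 to 106 against 107 to 138) with a log2FC of -0.49 ± 0.23 (adjusted p = 0.155), and Chrna4 was at -0.24 ± 0.15 (adjusted p = 0.269).

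Of the 3 AMPA receptor subunit genes, whose channels carry most fast excitatory transmission, 0 were called by edgeR, 1 by DESeq2 in SH against control (Gria2), and 2 in SH against control had an unadjusted p under 0.05. Gria2, whose edited product makes these channels calcium-impermeable, was the most abundant receptor gene per kilobase of transcript. It counted 20823 to 25987 in control, 25024 to 25748 in IH and 23589 to 28718 in SH, with log2FC of 0.12 ± 0.07 (adjusted p = 0.265) and 0.21 ± 0.07 (adjusted p = 0.0563). The SH value passed in 5 of 25 other settings, among them with DESeq2 (adjusted p = 0.0252) and without control replicate 3 (0.0242), and with the trends of fold change on transcript length and GC content removed it became -0.04 (adjusted p = 0.691). Gria3 and Gria4 were between 0.04 and 0.14 in both comparisons.

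In the kainate receptor family Grik5 fell in both hypoxia groups. Grik5 (chromosome 7, 24709269 to 24772708, minus strand) encodes GluK5, a high-affinity subunit that forms channels with other kainate subunits. It counted 7248, 6849, 6265 and 6357 in control, 5309, 5894, 5638, 6053 and 5216 in IH and 6046, 4835, 5310, 5470 and 5269 in SH. Every hypoxia library was below every control library, the nearest pair being 6053 in IH and 6265 in control. Grik5 fell by 0.25 in IH (SE 0.07, adjusted p = 0.0339) and by 0.31 in SH (SE 0.07, adjusted p = 0.00735), and IH and SH differed by 0.06 ± 0.07 (adjusted p = 0.747). With the length and GC trends removed the values were -0.04 (adjusted p = 0.658) and -0.02 (adjusted p = 0.856), and the SH call held in the other 24 settings. The IH call was lost in 9 of 25 settings, which also included the removal of control replicate 1, 2 or 4 or IH replicate 1 or 5 (adjusted p = 0.0501 to 0.109), the study's processing with limma (-0.26, adjusted p = 0.0541), the replicate block (-0.23, adjusted p = 0.0634) and the removal of the dentate-rich libraries (-0.22, adjusted p = 0.0872). Grik1, Grik3 and Grik4 lay between -0.20 and 0.16 and were not called.

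All 4 NMDA receptor subunit genes of the filtered table had negative log2FC in both comparisons with control, and Grin2d was called. The authors kept genes that differed from control, and Grin1 and Grin2a were not analysed, so the shared sign does not describe the whole family. NMDA receptors admit calcium on coincident activity and trigger plasticity; Grin2d encodes GluN2D, a subunit with slow kinetics that in the adult hippocampus is found mainly in interneurons. Grin2d (chromosome 7, 45481304 to 45527802) counted 787, 658, 520 and 570 in control, 461, 383, 422, 393 and 428 in IH and 443, 476, 601, 296 and 389 in SH. All IH libraries lay below control, whereas SH replicate 3 lay inside the control range.

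Grin2d fell by 0.60 in IH (SE 0.16, adjusted p = 0.027) and by 0.52 in SH (SE 0.16, adjusted p = 0.0336), and the difference of IH from SH was -0.08 ± 0.15 (adjusted p = 0.881, 95% interval -0.41 to 0.25). The IH call was lost without control replicate 1 (-0.48, adjusted p = 0.102), control replicate 2 (-0.58, 0.073), IH replicate 2 (-0.57, 0.0585) or IH replicate 4 (-0.58, 0.0584), and the SH call without control replicate 1 (-0.40, 0.123), control replicate 2 (-0.50, 0.0788), SH replicate 4 (-0.41, 0.0631), SH replicate 5 (-0.48, 0.0703) or all dentate-rich libraries (-0.32, 0.155) and with only those groups fitted (-0.53, 0.0636). With the length and GC trends removed both calls were lost, at -0.37 (adjusted p = 0.184) and -0.20 (adjusted p = 0.497).

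Grin2b, which encodes GluN2B and had the highest counts of the NMDA family, counted 17545, 21903, 22908 and 20636 in control, 18940, 18484, 15776, 18258 and 18530 in IH and 18089, 19306, 17704, 20690 and 20734 in SH. Control replicate 1 lay among the hypoxia libraries. The log2FC was -0.21 ± 0.08 in IH (adjusted p = 0.114; 0.0153 with the length and GC trends removed, at -0.28) and -0.10 ± 0.08 in SH (adjusted p = 0.391). Grin2c was at -0.26 ± 0.11 and -0.28 ± 0.11 (adjusted p = 0.12 and 0.0741) and Grin3a at -0.29 ± 0.22 and -0.12 ± 0.22. The delta receptor gene Grid1, whose product binds cerebellins at synapses, was at -0.07 in both groups.

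Among the metabotropic glutamate receptors Grm2 had the largest log2FC against control. It encodes a Gi-coupled presynaptic receptor, known for its expression in dentate granule cells. It counted 1077, 865, 830 and 1052 in control, 987, 1268, 1188, 1257 and 1480 in IH and 915, 1069, 1112, 1491 and 1428 in SH. The 3 highest values were those of the dentate-rich libraries. The log2FC was 0.37 ± 0.14 (adjusted p = 0.102) and 0.33 ± 0.14 (adjusted p = 0.113; 0.0409 without SH replicate 1), and Grm3, Grm4 and Grm8 were not called.

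Among the subunit genes of the GABAA receptor, the main inhibitory channel, Gabra3, Gabra4, Gabra5, Gabrd, Gabrg1 and Gabrg3 lay between -0.10 and 0.32 in SH and none of these 6 was called in any comparison. Gabrg1 was highest among them, at 0.32 ± 0.14 (adjusted p = 0.113), and Gabrd, the extrasynaptic delta subunit, was at -0.03 ± 0.16. Among the glycine receptor genes, Glrb, whose beta subunit anchors the channel to gephyrin, counted 3174, 3501, 3560 and 2981 in control, 3709, 3897, 4391, 3797 and 3674 in IH and 3419, 4279, 4113, 4031 and 3542 in SH. All IH libraries were above control, with log2FC of 0.24 ± 0.08 (adjusted p = 0.0657) and 0.23 ± 0.08 in SH (adjusted p = 0.0516); they passed in 3 and 9 of 25 other settings, among them with DESeq2 (adjusted p = 0.0389 and 0.0332), and with the length and GC trends removed the values were 0.05 (adjusted p = 0.741) and 0.0041 (adjusted p = 0.982).

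**Figure D4:**
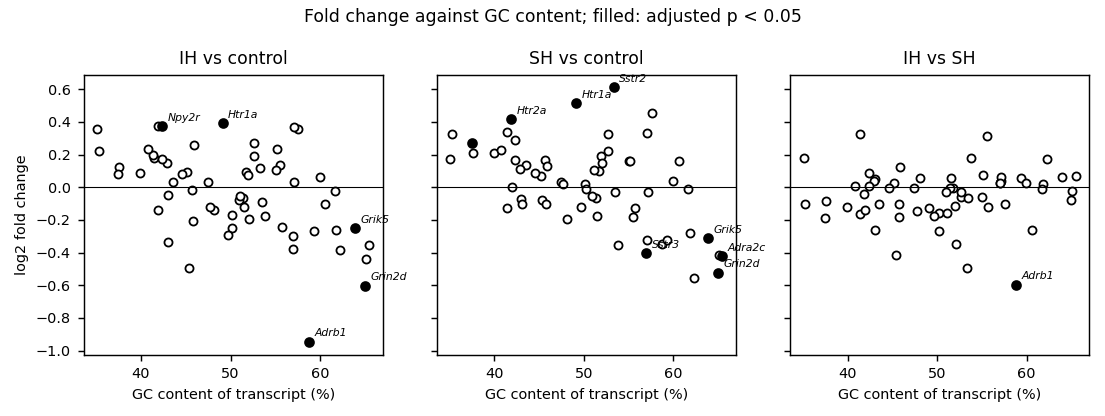
Log2 fold change of the 61 tested receptor genes against the GC content of their transcripts (percent) in the 3 comparisons; filled points have an adjusted p under 0.05. Lower values at higher GC content are seen in both comparisons with control and not in IH against SH, and Adrb1 lies below the other genes of like GC content in IH against control.

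The fold changes against control followed the base composition of the transcripts. Across the 61 genes, which are not independent replicates, Pearson's r of log2FC with GC content was -0.48 in IH and -0.53 in SH against control, beside -0.42 and -0.51 over all 7293 genes with a known GC content, and it was 0.04 in IH against SH (0.15 over all genes). With trends on length and GC content removed over the whole table these fell to 0.04 and 0.17 for the receptor genes, and 3 receptor genes were called in each comparison with control. In IH these were Adrb1 (-0.82, adjusted p = 0.000905), Htr1a (0.35, adjusted p = 0.036) and Grin2b (-0.28, adjusted p = 0.0153). In SH they were Htr1a (0.44, adjusted p = 0.00961), Sstr2 (0.67, adjusted p = 0.0239) and Sstr4 (0.41, adjusted p = 0.0378), the last named after its value was seen. Grik5, Grin2d, Adra2c, Htr2a, Npy2r and Sstr3 lost every call they had had against control.

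Somatostatin receptors are Gi-coupled receptors for the peptide of one interneuron class. In SH against control 2 of 4 genes were called, Sstr2 higher and Sstr3 lower, where 20.6% of all genes were called. Sstr2 (chromosome 11, 113510145 to 113516862) counted 140, 137, 101 and 155 in control, 159, 150, 113, 125 and 174 in IH and 202, 201, 254, 182 and 179 in SH. All SH libraries stood above all control and all IH libraries, which overlapped each other. Sstr2 rose by 0.61 ± 0.17 in SH (adjusted p = 0.0184), and the log2FC was 0.12 ± 0.17 in IH (adjusted p = 0.658). In IH against SH it was -0.50 ± 0.15, which did not pass the adjustment (adjusted p = 0.118, 95% interval -0.82 to -0.17). The SH call was lost without control replicate 3, the lowest library (0.50, adjusted p = 0.0511).

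Sstr3, a receptor of neuronal cilia and the most abundant of the family, counted 1087, 1048, 846 and 910 in control, 835, 767, 769, 754 and 622 in IH and 890, 756, 859, 645 and 530 in SH. The IH libraries were all below control, and SH replicates 1 and 3 fell within the control range. Sstr3 fell by 0.40 in SH (SE 0.14, adjusted p = 0.0464) and had a log2FC of -0.38 ± 0.14 in IH (adjusted p = 0.0804). The IH value passed with DESeq2 (adjusted p = 0.0496), with only those groups fitted (0.0409) and without SH replicate 5 (0.0425). The SH call was lost in 16 of 25 other settings, among them the removal of any one of control replicates 1, 2 and 4, IH replicates 1 to 4 and SH replicates 2, 4 and 5 (adjusted p = 0.0505 to 0.135) and of all dentate-rich libraries (-0.22, adjusted p = 0.159). Sstr1 and Sstr4 did not pass the edgeR test in any comparison; the call of Sstr4 given above came with the length and GC trends removed.

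Npy2r encodes the Y2 receptor, a Gi-coupled presynaptic receptor by which neuropeptide Y limits glutamate release. It counted 1056, 1202, 1199 and 1014 in control, 1607, 1529, 1493, 1490 and 1126 in IH and 1561, 1429, 1429, 1341 and 1061 in SH. In each hypoxia group 4 libraries lay above control and replicate 5, dentate-rich in both groups, lay within its range. Npy2r rose by 0.37 ± 0.11 in IH (adjusted p = 0.047) and had a log2FC of 0.29 ± 0.11 in SH (adjusted p = 0.0852). The IH call was lost in 15 of 25 other settings, including without any one of the control replicates, IH replicates 1 to 4 or SH replicates 2 to 4 (adjusted p = 0.0533 to 0.121), and without the dentate-rich libraries the SH value was 0.40 (adjusted p = 0.00939), 1 of 4 settings in which it passed.

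Of the opioid and adenosine receptor genes only Oprd1 had counts high enough to be tested. Oprd1, the delta opioid receptor gene, averaged 276 ± 45.0 in control, 324 ± 69.6 in IH and 308 ± 35.3 in SH, with log2FC of 0.23 ± 0.16 and 0.16 ± 0.16 (adjusted p = 0.325 and 0.495). Oprm1, the mu opioid receptor gene, was not tested; it counted 33.7 to 59.9 in every library except IH replicate 3, at 7.16. Adora2a, the Gs-coupled adenosine receptor best known from striatum, was not tested either and averaged 49.8 ± 5.65 in control, 59.3 ± 28.6 in IH and 33.2 ± 12.7 in SH.

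**Figure D5:**
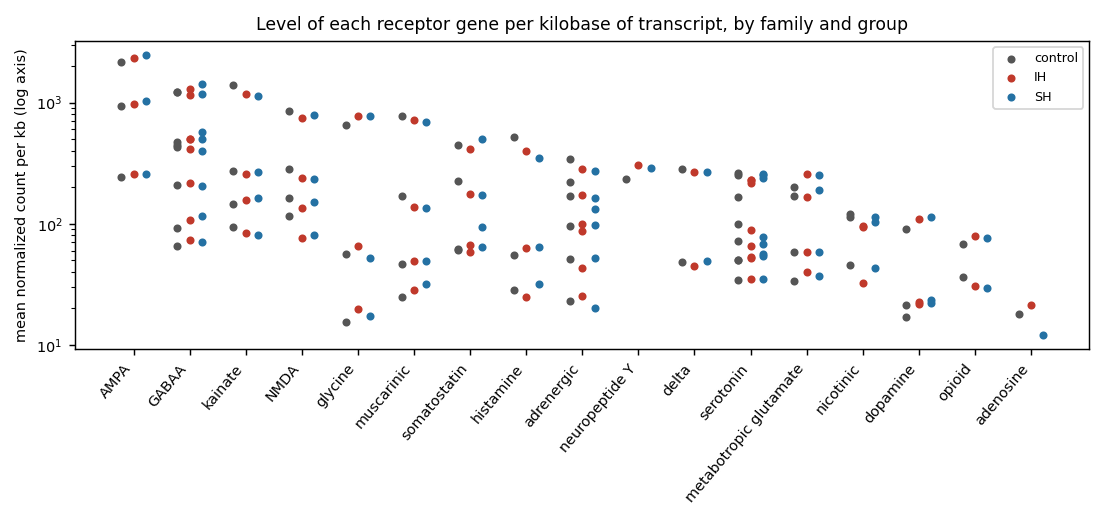
Mean normalized counts per kilobase of transcript (log axis) of the 63 receptor genes in the control, IH and SH groups, one column of points per family. Gria2 is highest at a mean of 2339 per kb over all libraries and Adora2a lowest at 17.1 per kb, and within families the 3 groups lie close together compared with the distances between genes.

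Per kilobase of transcript, levels over all 14 libraries spanned from 17.1 counts per kb for Adora2a to 2339 for Gria2. High levels were also those of Grik5 at 1227, Gabra5 at 1192, Gria3 at 985, Grin2b at 794, Glrb at 741 and Chrm1 at 728 counts per kb, most of which encode subunits of ligand-gated channels. The genes whose upstream sequences are shown had middle or low levels, with 210 counts per kb for Htr1a, 126 for Adrb1 and 74.9 for Sstr2. For a share of receptor genes the data bounded the difference: the 95% interval of the fold change lay within 1.5-fold either way for 35 of 61 genes (57.4%) in each comparison with control and for 46 of 61 (75.4%) in IH against SH, beside 69%, 67% and 78.2% of all genes. Among the 46 were Gria2 (-0.23 to 0.06), Grin2b (-0.27 to 0.07) and Htr1a.

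Genes whose products act with the receptors were read from lists chosen with earlier results of these data known. Their fold changes are from the main edgeR fit alone. Whether their calls hold with the length and GC trends removed, or with a library left out, was not tested. Of 11 tested genes of cAMP signalling downstream of beta adrenergic receptors, 2 fell and 2 rose in IH against control and 1 fell and 3 rose in SH (36.4% called in each, against 10.9% and 20.6% of all genes). Prkaca, the catalytic subunit of protein kinase A, fell from 4324 ± 260 in control to 3650 ± 126 in IH (-0.24, adjusted p = 0.00731) and 3772 ± 60.9 in SH (-0.20, adjusted p = 0.0129). Creb1, the transcription factor that this kinase activates, rose by 0.35 in IH (adjusted p = 0.00857) and 0.39 in SH (adjusted p = 0.0031), and its relative Crem rose by 0.40 and 0.50 (adjusted p = 0.0463 and 0.00976). Gnas, the Gs alpha subunit, fell by 0.28 in IH (adjusted p = 0.0336), and Pde4b, a cAMP phosphodiesterase, rose by 0.25 in SH (adjusted p = 0.0196). Gnas was at -0.09 in SH (adjusted p = 0.437) and Pde4b at 0.17 in IH (adjusted p = 0.116).

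Of 17 glutamate receptor auxiliary genes, 2 fell and 2 rose in IH and 3 fell and 2 rose in SH (23.5% and 29.4% called, against 10.9% and 20.6% of all genes). Cnih2, an AMPA receptor auxiliary subunit, fell by 0.42 in IH (adjusted p = 0.0483) and 0.64 in SH (adjusted p = 0.0043). Cacng8, another, fell by 0.28 in IH (adjusted p = 0.0393) and was at -0.17 in SH (adjusted p = 0.138). Neto2, the auxiliary subunit of kainate receptors, rose by 0.39 and 0.47 (adjusted p = 0.0205 and 0.00509). Of 9 genes for clustering of GABA and glycine receptors, 1 fell in IH and 2 fell in SH (11.1% and 22.2%), shares near those of all genes. Insyn1, a component of inhibitory synapses, counted 4379 to 4733 in control, 3494 to 4261 in IH and 2844 to 3545 in SH. It fell by 0.24 in IH (adjusted p = 0.0398) and by 0.54 in SH (adjusted p = 0.000372), and was higher in IH than in SH (0.30, adjusted p = 0.0297). Nlgn2, the adhesion protein of inhibitory synapses, fell by 0.24 in SH (adjusted p = 0.0135) and was at -0.16 in IH (adjusted p = 0.0938).

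Homer1, a scaffold of metabotropic glutamate receptors, was 1 of 9 tested genes for receptor kinases, arrestins and Homer proteins and the only one called (11.1%, against 10.9% of all genes in IH and 20.6% in SH), and it rose by 0.34 in IH and 0.37 in SH (adjusted p = 0.0105 and 0.00379). Of 11 genes for transmitter synthesis, transport and breakdown, 2 rose in IH, and 4 rose and 3 fell in SH (18.2% and 63.6% called, against 10.9% and 20.6% of all genes). Slc18a2, the vesicular monoamine transporter, counted 48.3 to 99.0 in control, 121 to 236 in IH and 123 to 216 in SH, and rose by 1.15 ± 0.23 and 1.11 ± 0.23 (adjusted p = 0.00765 and 0.00558). Glul, the glutamine synthetase of astrocytes, rose by 0.29 and 0.22 (adjusted p = 0.018 and 0.041). In SH, Gad1, which makes GABA, rose by 0.30 (adjusted p = 0.00728), and Slc17a7, the vesicular glutamate transporter, fell by 0.26 (adjusted p = 0.0215). In IH they were at 0.21 (adjusted p = 0.0608) and -0.23 (adjusted p = 0.0542), and neither was called in IH against SH (adjusted p = 0.530 and 0.904). The 6 tested nicotinic receptor chaperones and modulators and the 6 tested genes of peptide, endocannabinoid and adenosine supply gave 0 calls with edgeR in any comparison; DESeq2 called 1 supply gene in IH against control, and 2 genes of each list had an unadjusted p under 0.05 in SH against control.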

How the data were processed

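Poly(A) RNA of 14 mouse hippocampus samples was sequenced. The deposited values are estimated counts per gene, which the authors made with fastp 0.23.4, HISAT2 2.2.1 (GRCm39) and StringTie 2.2.1 and left unnormalized; the authors kept protein-coding genes above a low signal limit whose processed signal differed from control. Values were rounded (10 genes were not whole). Library totals were 7203659 to 11777101.

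Counts were tested with edgeR 4.0.16 (R 4.3.3; quasi-likelihood, TMM, 3 groups in one fit, group as the only term) for genes averaging 40 counts or more per group, with Benjamini-Hochberg adjustment over 7338 genes; the SE is the log2FC divided by the square root of F. The study names no test for its RNA-seq p-values. On simulated data with 200 changed genes among 7338, changes of 1 on the log2 scale were recovered in 86% (IH against control), 87% (SH against control) and 90% (IH against SH) of cases, and changes of 0.5 in 44%, 47% and 47%. Alternatives were DESeq2 1.42.0, limma 3.58.1 on the study's processing, other scalings, filters and terms, and each library left out.

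Receptor genes were taken by symbol. Named are Adrb1, each receptor gene called in any comparison and the most abundant gene of each family, and up to 3 called genes per related list and comparison; other receptor genes are given as ranges or with values and were chosen after their values were seen. Some receptor genes are included in the counts but are not reported here. Members, lists and markers were chosen with earlier results of these data known. Annotation (lengths, GC content, overlaps) came from GENCODE on GRCm39, with 7708 genes matched, and promoter windows from RefSeq on GRCm38.p6. No library pair within a group agreed within sampling noise.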

Additional observations from a re-analysis of the deposited data

Results flagged for a closer look

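Single libraries stood away from the rest of their group in 5 of 66 groups checked (each of 22 receptor genes in 3 groups), where chance alone flags about 1 in 20 groups. Adrb1 was at 577 normalized counts in control replicate 1, with the next library at 476. Gria2 was at 25748 in IH replicate 2, with the next at 25184 and all 5 IH libraries within a narrow range. Grid1 was at 1511 in IH replicate 5, below the next at 1641, and Grin2b at 15776 in IH replicate 3, below the next at 18258. Npy2r was at 1126 in IH replicate 5, one of the dentate-rich libraries, below the next at 1490.

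The sequenced RNA level of Adrb1 differed between IH and SH, by the direct test of the difference (-0.60 on the log2 scale, adjusted p = 0.018 in edgeR). The study's RT-qPCR found no significant effect of exposure on Adrb1. All 5 IH libraries were below all 5 SH libraries. Without the dentate-rich libraries the difference was -0.67 (adjusted p = 0.066).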

How the results depend on the processing

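Of the receptor genes called in IH against control (5), DESeq2 gave 9, removal of length and GC trends 3, the study's processing with limma 3 and the study's limits 2, and leaving out 1 library 2 to 6. In SH against control (8), DESeq2 gave 12, removal of the trends gave 3, the study's limits 1 and leaving out 1 library 4 to 16. In IH against SH (1), fitting only those groups gave 0 and leaving out the dentate-rich libraries 0. The replicate block gave 6, 12 and 1; same-numbered libraries correlated at -0.30 to 0.47 over 13 pairs, 6 of them above 0.1, and 5 libraries matched their own number best, so the numbers do not pair them. Signs turned for small values. With the trends removed, Gria2 was at -0.10 (IH) and -0.040 (SH), and in IH against SH Adra2c at -0.029 and Grik5 at -0.024. Htr2c in SH was at 0.021 with library total scaling, 0.0073 without a filter, 0.20 with the replicate block and 0.38 without the dentate-rich libraries. Without those libraries Htr2c in IH was at 0.053, Chrna7 in SH at 0.080 and, in IH against SH, Htr1a at 0.0041 and Sstr3 at -0.10. Leaving out 1 library gave -0.34 to 0.088 (Htr2c, IH), -0.19 to 0.22 (Htr2c, SH) and -0.14 to 0.030 (Chrna7, SH), and in IH against SH -0.19 to 0.055 (Grin2d), -0.091 to 0.013 (Htr2a) and -0.073 to 0.11 (Sstr3). The causes were not tested. Adora2a and Oprm1 lay under the count minimum and were not tested in the main fit, and no result without a filter is given for them here.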
